A study of Drosophila melanogaster with 3 samples.

Results

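The genes described here are the 48 protein-coding genes of *Drosophila melanogaster* that encode subunits of the proteasome or copies of those subunits, out of 13945 protein-coding genes on the 6 chromosome arms analysed. They were chosen by name in the Ensembl annotation of the Release 6 (dm6) assembly, as every name that begins with Rpn or Rpt and a digit, or with Prosalpha or Prosbeta. Of the 48 genes, 16 carry an R or T after the digit, which marks a related copy. The other 32 are called single-copy here by name alone, since 12 of them have such a copy among the 16. The measurement was chromatin immunoprecipitation followed by sequencing (ChIP-seq), which recovers the DNA that a protein sits on, for the homeodomain transcription factor achi (achintya). All samples form 1 group of 3 biological replicates, made from whole prepupae of a transgenic line that stably expresses achi with GFP at its C-terminus. Males and females were pooled, and the chromatin was sonicated. No dose, time course or other genotype was compared, so the results are positions and ranks of binding within this line, beside the same values for all genes. The labels do not say which promoter drives the transgene, whether the endogenous achi gene is intact, or how old the prepupae were. Whole animals mix many tissues, so binding in a few cells and weak binding in many cannot be told apart.

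The proteasome is the large protease that degrades proteins marked with ubiquitin. Its core particle is a barrel of alpha rings, which gate the entrance, and beta rings, which hold the catalytic sites. The regulatory particle on its end has a base, with the Rpt ATPases that unfold substrates, and a lid, which removes ubiquitin chains. The copies are known in *Drosophila* chiefly as variants with restricted expression, and several of them are specific to the testis. The protein achi belongs to the TGIF family of homeodomain proteins, whose members bind the word TGACAG or its core, and with its near copy vis it is required for the transcription programme of male germ cells.

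Binding was read from the authors' deposited peak lists. The optimal list, made by the authors from the replicates and their pool, held 8998 peaks. The lists of the single replicates and of their pool were longer, with 30000 regions each. A gene was called bound when the summit of an optimal peak, its point of highest enrichment, lay within 500 bp of one of its transcription start sites (TSSs). Every bound proteasome gene had the same rank in the optimal list as in the pooled list. A call thus did not require a region in each replicate. A summit in a promoter shared by neighbouring genes counts for each of them. Strength is given as the rank of the authors' signal value within a list, where rank 1 is the strongest, and as percent rank, where 100 is the strongest. For each replicate a top list of its 8998 strongest regions was also formed, so that lists of equal length could be compared. Read depth is not given in the sources used here, so a gene with no summit is one where no region was listed, not one shown to be free of achi.

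Of the 48 proteasome genes, 11 were bound in the optimal list, which is 22.9% of them, beside 23.2% of all protein-coding genes. In this list the members as a whole were therefore bound about as often as all genes. Within the complex the bound genes were unevenly spread. All 11 were single-copy genes, 34.4% of the 32, and none of the 16 copies was bound. Of the lid genes chosen by name 6 of 8 were bound, of the base genes 2 of 10, and of the core genes 3 of 14. The name rule leaves out the small lid subunit Sem1, which was not bound, so that the lid counts here and in what follows are over the 8 Rpn genes. Rpn10, which was not bound, was counted with the base by choice. Within the base, 0 of the 6 ATPase genes and 2 of the 4 other genes were bound. Within the core, 3 of 7 alpha genes and 0 of 7 beta genes were bound. With only the most upstream TSS of each gene, Rpn8 was lost. Then 10 members were bound, or 20.8%, 5 of them in the lid, beside 20.4% of all genes. With each summit given to its nearest gene alone, 7 members were bound, or 14.6%, 4 of them in the lid, beside 18.3% of all genes. When a replicate was left out and a peak had to be in the top list of each of the others, 6, 7 and 7 members were bound without replicates 1, 2 and 3, with 4, 5 and 5 lid genes and no base gene. These are 12.5%, 14.6% and 14.6% of the members, beside 19.1%, 19.6% and 19.9% of all genes. The lower share of the members goes with the 16 copies, of which 0 were bound in each setting. The single-copy genes alone were at 18.75%, 21.9% and 21.9%, near the shares of all genes.

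**Figure D1:**
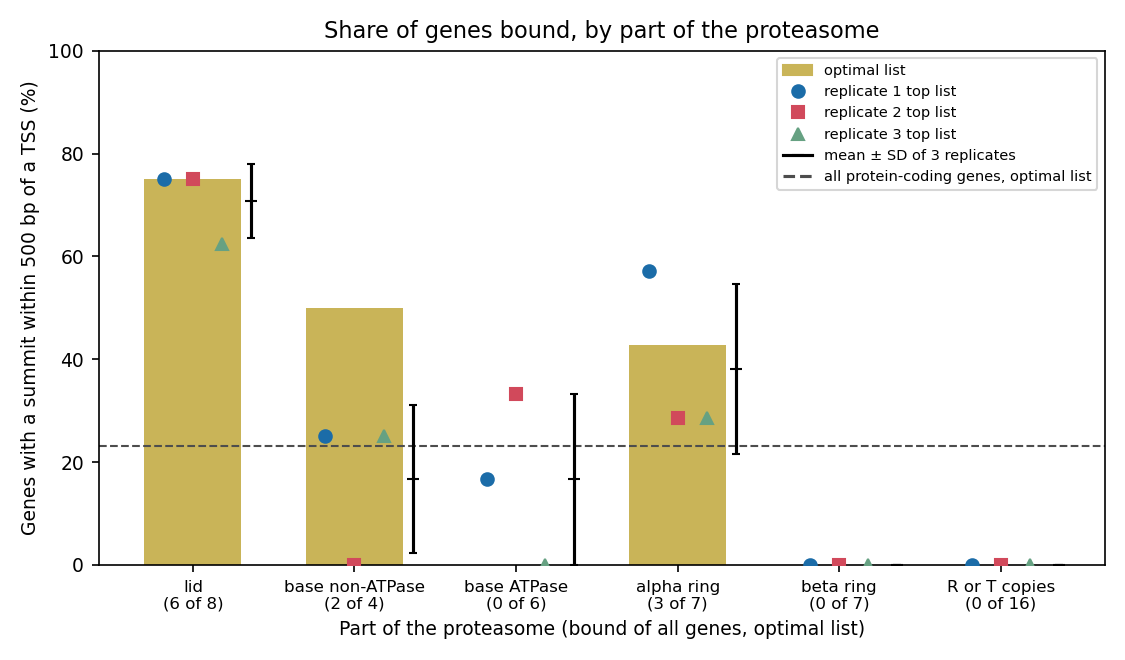
Share of genes with a summit within 500 bp of a TSS (y axis, percent) for each part of the proteasome (x axis), as bars for the optimal list, points for each replicate's top list and a black mark with the mean ± SD of the 3 replicates. The dashed line is the share of all protein-coding genes in the optimal list, 23.2%; the lid lies far above it in every list, and the beta ring and the copies are at 0.

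The lid had the highest share of bound genes when each replicate was read on its own. In the top lists, 12, 10 and 8 members had a summit within 500 bp of a TSS in replicates 1, 2 and 3, or 20.8% ± 4.17 (SD, n = 3). The shares of all protein-coding genes in the same lists were 26.6%, 23.9% and 22.6%. For the lid the counts were 6, 6 and 5 of 8, or 70.8% ± 7.22 (SD, n = 3), and for base and core together the share was 18.1% ± 6.36 (SD, n = 3). The lid share exceeded that of base and core by 50, 58.3 and 50 percentage points in replicates 1, 2 and 3, a mean of 52.8 ± 4.81 (SD, n = 3). That gap was larger than the spread between replicates in each list, but it rests on 8 lid genes and was not tested. The copies had no summit in any top list, and neither had the beta genes. Of the members, 6 were in the top lists of all 3 replicates, or 12.5% beside 18.7% of all protein-coding genes; 4 of the 6 encode lid subunits. All 3 replicate lists and the pooled list were made with the same control, so that agreement between replicates does not speak to a fault in that control.

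Genes with another promoter close by were bound more often across the genome, and the proteasome genes differed in how often they have one. Of the single-copy genes, 65.6% had the TSS of another protein-coding gene within 500 bp of their own, beside 30.9% of all protein-coding genes and 18.75% of the copies. Among single-copy genes with such a neighbour, 9 of 21 were bound, or 42.9%, and among all genes with one the share was 37.6%. Without a neighbour, 2 of 11 single-copy genes were bound, or 18.2%, beside 16.7% of all genes without one. Set against genes of the same arrangement, the single-copy genes thus lay near the background. The lid did not follow that share, with 5 of its 6 genes that have a neighbour bound, while base and core had 4 of 15. For the copies the counts were 0 of 3 with a neighbour and 0 of 13 without. The number of start sites moved with the call as well. Of the 12 members with more than 1 TSS 6 were bound, beside 40.4% of all such genes, and of the 36 with 1 TSS 5 were, beside 17.0%. More than 1 TSS was found at 4 of the 8 lid genes, beside 6 of the 24 base and core genes. Those lid genes, Rpn3, Rpn6, Rpn8 and Rpn9, were all bound, as were Rpn5 and Rpn11 with 1 TSS. Of the 6, Rpn13 and Prosalpha5 were bound. Whether the lid share goes with its start sites was not tested.

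Among the lid genes, Rpn9, which encodes a scaffold subunit, stood far above the rest. Its peak was the 4th strongest of the 8998 optimal peaks (rank 4), and it also had rank 4 in each of the 3 replicates, a percent rank of 99.99 ± 0 (SD, n = 3). The summit, at chr3R:23733043 in a peak of chr3R:23732735-23733404, lay 32 bp upstream of the downstream of the gene's 2 TSSs, and the replicate summits lay 32, 42 and 33 bp upstream of it. Rpn9 (FBgn0028691) is on the minus strand. The window of 100 bp on each side of this summit held TGACAG 2 times, on opposite strands and with 3 bases between the words. The pair makes up the first 15 bases of the exon that starts at this TSS, and it is shown because Rpn9 carries the strongest peak and the word of the factor's family. The window is chr3R:23732990-23733019 of dm6, minus strand, read in the direction of Rpn9, with the words in capitals; the first reads as TGACAG on the other strand.
Rpn9: caagcgatCTGTCAatgTGACAGctgcgtc

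Rpn5, another scaffold subunit of the lid, had the next highest rank among the members. Its optimal rank was 535, and its ranks in replicates 1, 2 and 3 were 488, 386 and 908, or a percent rank of 98.0 ± 0.922 (SD, n = 3). This summit lay 297 bp upstream of the Rpn5 TSS and only 122 bp from that of Hat1, a histone acetyltransferase gene; a second optimal summit, of rank 1011, lay 93 bp upstream of the Rpn5 TSS. Rpn5 was the other bound member with TGACAG near its strongest summit, with the word 91 bp away. It is shown, in capitals, at chr3R:5789090-5789119 of dm6 on the minus strand.
Rpn5: aaacgacacatcTGACAGcccaatccgtgg

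The other bound lid genes ranked lower and varied more. Rpn3, a scaffold subunit, had optimal rank 2102 and ranks 2553, 2439 and 1793 in replicates 1, 2 and 3, with its summit 16 bp upstream of the TSS. Rpn11, the metalloprotease that cuts ubiquitin chains off the substrate, had optimal rank 4718 and replicate ranks 3837, 4625 and 5872, with the summit 147 bp upstream. Both were in all 3 top lists, with percent ranks of 92.5 ± 1.37 for Rpn3 and 84.1 ± 3.42 for Rpn11 (SD, n = 3). Rpn11 has no neighbouring start site within 500 bp, so that its summit counts for it alone, while the start of l(2)37Bb is 162 bp from the Rpn3 summit.

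Rpn6 and Rpn8 differed between the replicates. For Rpn6, a lid subunit that clamps the lid to the core, the optimal rank was 6044 and the replicate ranks were 4865, 10630 and 5934, so that replicate 2 fell outside its top list; the percent rank was 76.2 ± 10.2 (SD, n = 3). Its summit, 157 bp upstream of the downstream of the gene's 2 TSSs, was nearer to the start of ave, at 93 bp. For Rpn8, the inactive partner of Rpn11, the optimal rank was 5812. Its strongest regions had ranks 2801 and 3179 in replicates 1 and 2, and replicate 3 listed none within 500 bp, its nearest summit being 10800 bp from a TSS. The strongest summits of replicates 1 and 2 lay 193 and 191 bp upstream, while the optimal summit lay 9 bp downstream, where both replicates had a weaker region of rank 5613 and 4954. These positions are from the downstream of the gene's 2 TSSs, which lies inside the gene. Rpn8 was the single bound member with its optimal summit downstream of its nearest TSS.

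Of the lid genes, Rpn7 and Rpn12 were not bound. Rpn7 had a region of rank 6529 in replicate 2 and none in the others or in the pooled list. Rpn12 had regions in all 3 replicates, of rank 10879, 14891 and 10700, each below the top list. Each of the 8 lid genes thus had a region in at least 1 replicate, whereas 12 of the 32 single-copy genes and 15 of the 16 copies had none in any, beside 48.9% of all protein-coding genes.

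**Figure D2:**
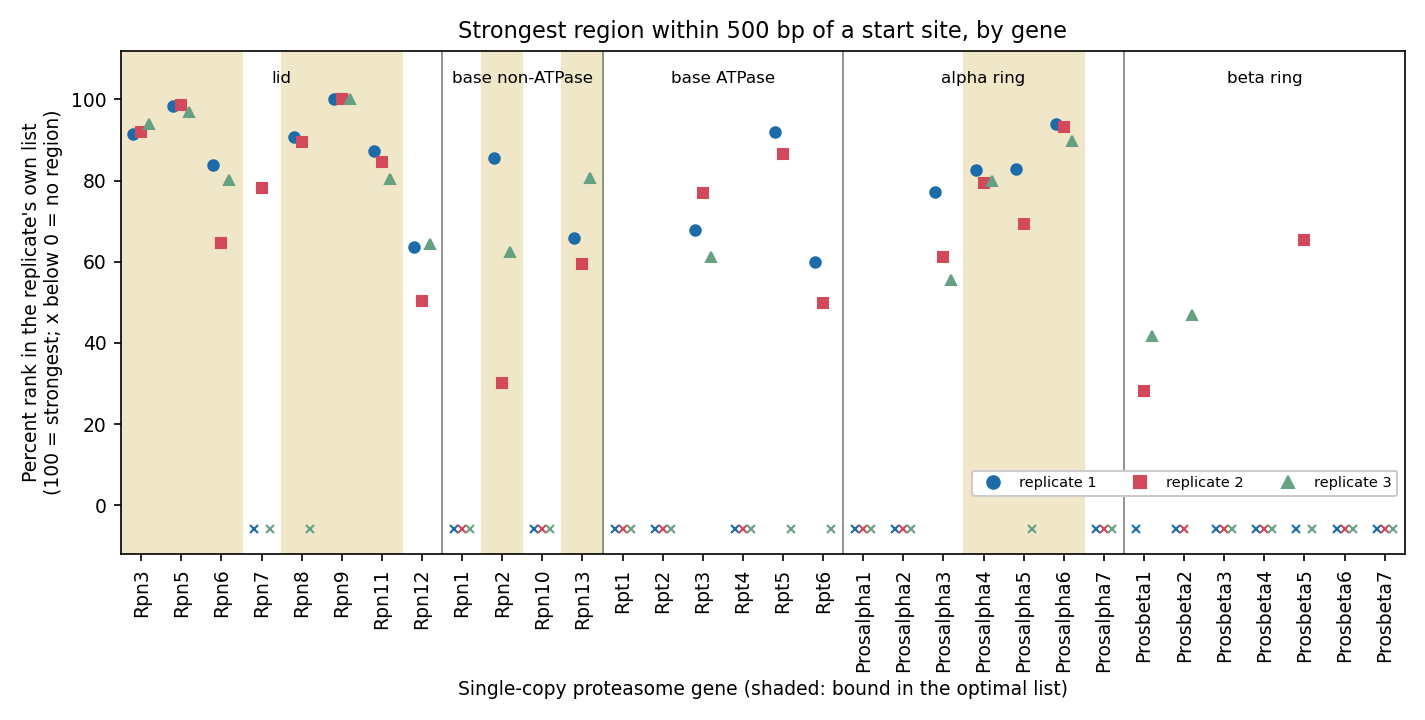
Percent rank (y axis, 100 is the strongest of 30000 regions) of the strongest region within 500 bp of a TSS for each single-copy gene (x axis) in the 3 replicates, with a cross below 0 where a replicate listed none. Shaded genes were bound in the optimal list; Rpn9 is at 99.99 in all 3 replicates, and most beta genes have crosses only.

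In the base, the bound genes were Rpn2 and Rpn13, both near the lower end of the optimal list. Rpn2, a scaffold on which the base and its ubiquitin receptors are built, had optimal rank 7312 and replicate ranks 4313, 20986 and 11248, the widest spread among the bound members, with a percent rank of 59.4 ± 27.9 (SD, n = 3). In replicates 2 and 3 its authors' q-values were 0.302 and 0.0200, above 0.01. Rpn13, a ubiquitin receptor, had optimal rank 8182 and replicate ranks 10243, 12206 and 5785, and its q-values in replicates 1 and 2 were 0.0158 and 0.0249. Neither gene was in more than 1 top list, and the starts of Slbp and CtsL1 lie 152 and 226 bp from their summits. The scaffold Rpn1 and the ubiquitin receptor Rpn10 had no region in any replicate.

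The ATPase genes had no optimal summit, but 2 of them reached a top list. Rpt5 had strong regions in replicates 1 and 2, of rank 2402 and 4072, with summits 17 bp upstream and 19 bp downstream of the TSS. Replicate 3 and the pooled list held no region there, and the nearest optimal summit was 5294 bp away. Rpt3 had ranks 9673, 6929 and 11655, of which that in replicate 2 was in the top list, and rank 10698 in the pool. Rpt6 had regions of rank 12016 and 15045 in replicates 1 and 2. No replicate listed a region at Rpt1, Rpt2 or Rpt4.

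In the core, Prosalpha6 and Prosalpha4, which encode subunits of the alpha ring, were in all 3 top lists. Prosalpha6 had optimal rank 2167 and replicate ranks 1839, 2066 and 3097, and Prosalpha4 had optimal rank 5446 and replicate ranks 5183, 6215 and 5998. Their percent ranks were 92.2 ± 2.23 and 80.7 ± 1.81 (SD, n = 3). Both summits were nearer to the start of another gene: that of Prosalpha6, 303 bp upstream of its TSS, was 96 bp from Npc1a, a sterol transport gene, and that of Prosalpha4, 287 bp upstream, was 66 bp from kat80, which encodes a katanin subunit. Prosalpha6 had a second optimal summit, of rank 3176, at 99 bp upstream of its own TSS.

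The third bound core gene, Prosalpha5, had optimal rank 7598 and ranks 5173 and 9205 in replicates 1 and 2, with no region within 500 bp in replicate 3, whose nearest summit was 4975 bp away. It has no neighbouring start site within 500 bp, and its summit lay 59 bp upstream. Prosalpha3 was not bound, although its promoter had regions of rank 6849, 11655 and 13317 in the replicates and 9117 in the pool, just below the length of the optimal list. Prosalpha1, Prosalpha2 and Prosalpha7 had no region in any replicate.

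The beta genes, which include the proteolytic subunits, were the lowest of the single-copy genes. Of the catalytic ones, Prosbeta1 (caspase-like) had regions of rank 21582 and 17487 in replicates 2 and 3. Prosbeta2 (trypsin-like) had 1 region, of rank 15908 in replicate 3, and Prosbeta5 (chymotrypsin-like) had 1, of rank 10371 in replicate 2. The other 4 beta genes had none. Among the genes outside the 500 bp limit, Prosbeta6 came nearest to a call, with an optimal summit of rank 4453 at 1095 bp; next were Rpn12 at 1569 bp and Prosbeta5 at 1668 bp. Just inside it, Prosalpha4 lay at 287 bp and Rpn6 at 157 bp, so that, by each gene's nearest optimal summit, no member lay between 287 and 1095 bp.

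The 16 copies were followed beside the 12 single-copy genes they are named after. Of those 12 namesakes 3 were bound, namely Prosalpha4, Prosalpha6 and Rpn13, beside 23.2% of all protein-coding genes. A region in at least 1 replicate was listed for 9 of the 12, while 48.9% of all protein-coding genes had none. Of the copies, 1 had a region in any replicate, Rpt6R, with rank 24057 in replicate 1. The median distance from a copy's TSS to the nearest optimal summit was 16417 bp, beside 2628 bp for the single-copy genes, 120 bp for the lid and 5084 bp for all protein-coding genes. The copies nearest to a summit were Prosbeta2R2 at 3427 bp and Prosbeta5R1 at 3652 bp. How reads that match both a copy and its namesake were placed is not given in the sources used here, so values at the copies are uncertain to that extent.

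**Figure D3:**
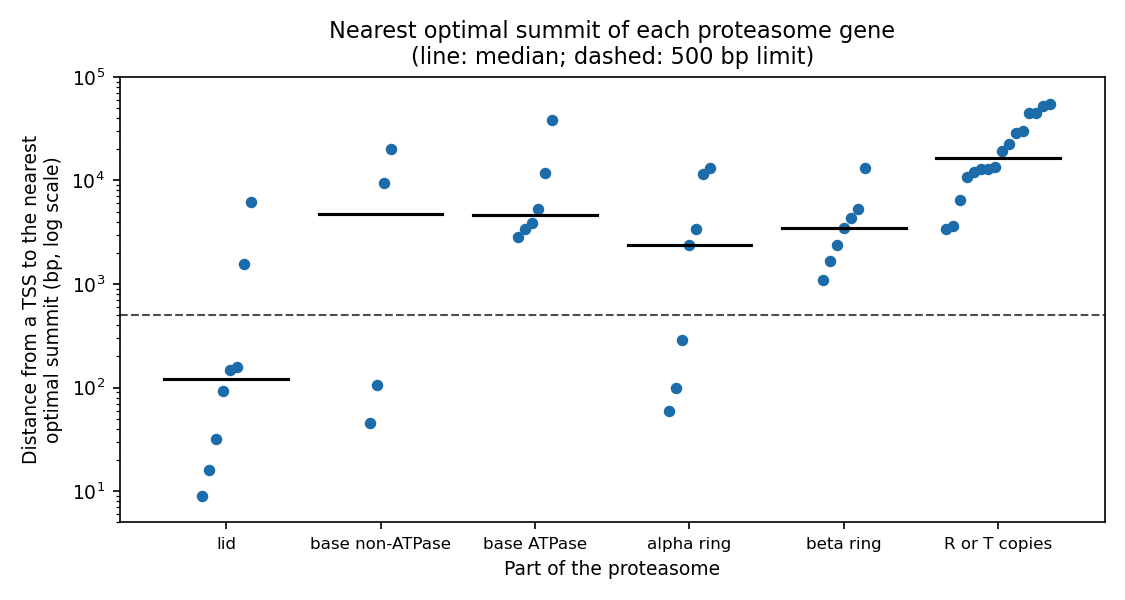
Distance from a gene's nearest TSS to the nearest optimal summit (y axis, bp, log scale) for every proteasome gene (points), by part of the complex (x axis), with the median as a line and the 500 bp limit dashed. Only lid, base non-ATPase and alpha genes lie under the limit; the copies have a median of 16417 bp.

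Rank and position of the 11 bound members were compared with those of all 3234 bound genes. The members' median optimal rank was 5446, with 3410 for the 6 lid genes and 7312 for the other 5, beside 3083.5 for all bound genes. Rpn9, Rpn5, Rpn3 and Prosalpha6 ranked above that median and the other 7 members below it. The strongest summit lay upstream of the nearest TSS in 10 of 11 members, or 90.9%, beside 84.6% of all bound genes. The median distance of this summit was 106 bp, beside 157 bp. At Rpn6, Rpn8 and Rpn9 the nearest TSS lies inside the gene. The largest shift between the optimal summit and that of a replicate was between 10 bp, at Rpn9, and 202 bp, at Rpn8, with a median of 32 bp. Over all single-copy genes with a region, the median percent rank was 84.7, 76.9 and 80.1 in replicates 1, 2 and 3, or 80.6 ± 3.92 (SD, n = 3), beside 77.3 ± 0.925 for all genes with one, a difference smaller than the members' spread between replicates.

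**Figure D4:**
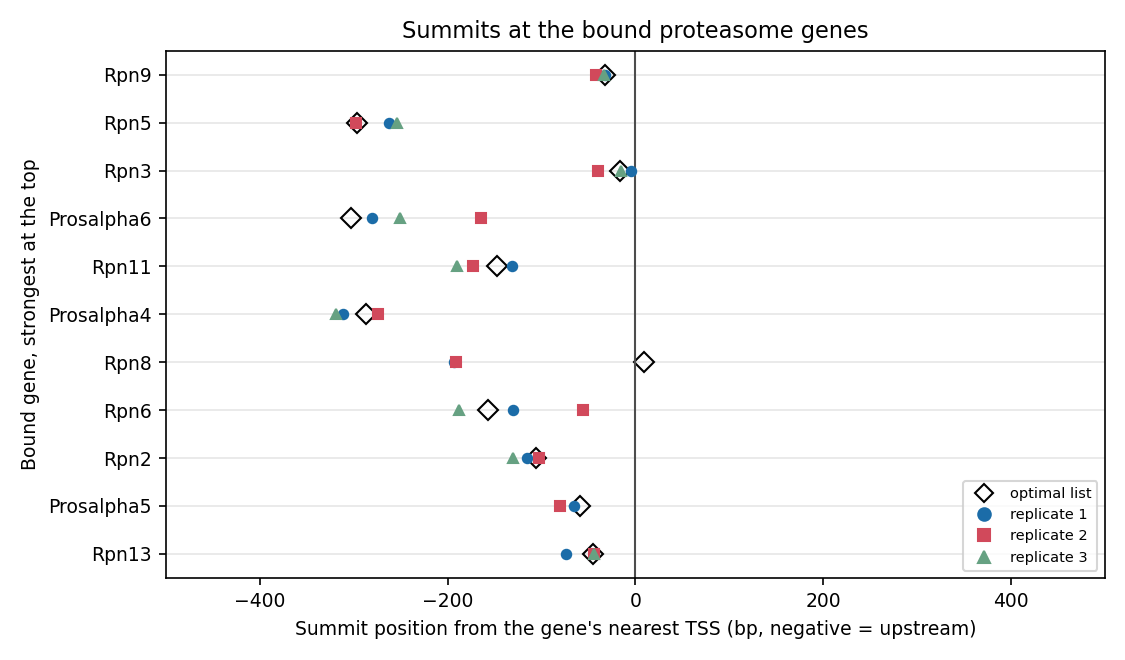
Position of the strongest summit from the nearest TSS (x axis, bp, negative is upstream) at the 11 bound genes (y axis, strongest at the top), as a diamond for the optimal list and filled points for the replicates. All but Rpn8 have the optimal summit upstream, and the replicate summits of Rpn9 lie within 10 bp of it.

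Sequence around the summits was searched on both strands for 5 words fixed with the gene lists. Within 100 bp of the strongest summit, TGACAG was found at 2 of the 11 bound members, or 18.2%, beside 11.7% of 2928 promoter summits; with so few genes the shares are a description. TATCGATA, the DNA replication-related element to which the *Drosophila* factor DREF binds, was near 2 of them, or 18.2% beside 6.25%, at Rpn3 and Prosalpha5. The word TATAAA was near 4, or 36.4% beside 35.4%. Neither TGACNNNGC, the core of the antioxidant response element to which cnc binds, nor CACGTG was found there, beside 5.05% and 2.32% of promoter summits. A match of one word may overlap a match of another in position, and each was counted on its own.

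The promoters of all members, from 250 bp before to 50 bp after the most upstream TSS, showed a different word. TATCGATA was in 12 of the 48, or 25%, beside 9.36% of all 13945 promoters, and all 12 are single-copy genes, 37.5% of these. Of the 12, 5 were bound, or 41.7%, and of the 20 single-copy genes without the word 6 were, or 30%; over all genes the shares were 32.3% with the word and 22.3% without it. TGACAG was in 3 member promoters, or 6.25% beside 11.8%, at Prosbeta4R1, Rpn12R and Rpt5, none of them bound. The pair at Rpn9 lies at its downstream TSS and so outside this window. TGACNNNGC was in 6, or 12.5% beside 8.63%, none of them bound, and CACGTG was in none, beside 4.20%; TATAAA was in 18, or 37.5% beside 45.8%.

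For 8 of the 12 genes the 30 bases around TATCGATA are shown, because it is the word that the single-copy genes share most often above the background. They were chosen after the values were seen, and are from dm6, in the direction of the gene, with the word in capitals. Their places are chr2L:19051582-19051611 (Rpn3, plus strand), chr3R:23733418-23733447 (Rpn9, minus), chr3R:22462033-22462062 (Rpn7, minus), chr3L:16582801-16582830 (Rpn12, plus), chr3R:23752819-23752848 (Rpt5, plus), chr2L:10221324-10221353 (Prosalpha6, plus), chr3L:14999930-14999959 (Prosbeta2, plus) and chr3L:16610444-16610473 (Prosbeta6, minus). The word begins 16 bases before the TSS at Prosalpha6, 10 before it at Prosbeta2 and 46 before it at Rpt5, and at Rpn9 and Rpn7 it lies in the transcribed part. At Rpn3 the word shown begins 197 bases before the TSS. It is not the one counted within 100 bp of the Rpn3 summit, which lies at chr2L:19051866-19051873, in an exon.
Rpn3: tgttatcggagTATCGATAtcgaaaaggct
Rpn9: gcccggttaaaTATCGATAttctcgcggat
Rpn7: gcggtataattTATCGATAattttggggtc
Rpn12: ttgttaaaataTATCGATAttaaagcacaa
Rpt5: atcgctgtcacTATCGATAagcgccggcga
Prosalpha6: cccgaatccctTATCGATAcccgatacaca
Prosbeta2: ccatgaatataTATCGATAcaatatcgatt
Prosbeta6: gtatgtataccTATCGATAacgtttaagca

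Rpt5 carries TGACAG just before this element, on the other strand and 53 bp upstream of its TSS. It is the one single-copy gene with TGACAG in its promoter, and it had strong regions in replicates 1 and 2 and none in replicate 3 or the pool. The stretch is chr3R:23752811-23752840 of dm6, plus strand, with the capitals marking the place of TGACAG, which reads CTGTCA on the gene's strand; it overlaps the stretch of Rpt5 given with TATCGATA.
Rpt5: gctgtgttatcgCTGTCActatcgataagc

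The summits at Prosalpha6 and Prosalpha4 lay in DNA rich in A and T. Over the 61 bases centred on the strongest summit, the G and C share had a median of 29.5% in the bound members, from 16.4% to 49.2%, beside a median of 34.4% at all promoter summits. The lowest shares were 16.4% at Prosalpha6 and 19.7% at Prosalpha4, both at summits nearer to the start of the neighbouring gene and without TGACAG within 100 bp. They are shown as the plus strand of dm6, at chr2L:10221018-10221078 and chrX:16275953-16276013, outside any annotated exon and with no capitals, since none of the words lies in them.
Prosalpha6: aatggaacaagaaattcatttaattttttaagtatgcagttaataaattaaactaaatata
Prosalpha4: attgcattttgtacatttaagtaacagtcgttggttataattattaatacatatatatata

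Genes that act with the proteasome were read from a list of 31 names, of which 30 matched the annotation and 14 were bound, beside 23.2% of all genes. The list was not matched for start sites, of which cnc has 10 and Diap1 5. Of all genes with more than 1 TSS 40.4% were bound, and of those with 1 TSS 17.0%. Of the regulators and assembly factors, 6 of 11 were bound. They include cnc, the *Drosophila* relative of the Nrf factors that raises proteasome gene expression, with optimal rank 1683, and its partner maf-S and inhibitor Keap1, with ranks 7325 and 7457. The assembly chaperone Pomp had rank 2844, the glycanase Pngl 2941 and the proteasome-binding regulator PI31 8135. In replicates 1, 2 and 3 cnc had ranks 1401, 2165 and 1720 and Pomp had 2955, 3565 and 2359, all in the top lists. Outside the top list were maf-S and Keap1 in replicate 3, with ranks 12931 and 10588, and PI31 in replicate 2, with rank 9898.

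Of the genes for ubiquitin and its delivery, 3 of 10 were bound: the polyubiquitin genes Ubi-p63E and Ubi-p5E, with optimal ranks 3867 and 6020, and Npl4, a cofactor of the segregase TER94, with rank 4930. Of the ubiquitin ligases and their adaptors, 5 of 9 were bound. These were slmb and ago, F-box subunits of SCF ligases, with ranks 2062 and 5554, fzy, an activator of the anaphase-promoting complex, with 2333, park, the parkin ligase, with 7065, and Diap1, the ligase that restrains caspases, with 8524. Of the 30 matched genes, 9 were in the top lists of all 3 replicates, all of them among the 14 bound. Of all protein-coding genes, 23.2% were bound and 18.7% were in all 3 top lists. Outside the top list were ago in replicate 1, with rank 10647, and park in replicates 2 and 3, with ranks 10497 and 12566. The lid protein Sem1 and the proteasome-bound deubiquitinase Usp14 had no region in any replicate. These lists are short, were made with earlier results of these data known, and were not tested.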

How the data were processed

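The analysis began from the deposited peak lists of 3 ChIP-seq replicates of 1 group. Per the labels, the precipitation used an anti-GFP antibody; a second label names achi itself as what the antibody recognised. Per the file headers and the descriptions deposited with them, regions were listed per replicate and for the pool against 1 shared control, and the authors derived the optimal list by filtering on the irreproducible discovery rate (IDR). At the bound members the optimal list ranked peaks as the pool did, also where a replicate listed no region within 500 bp. Aligner and peak caller: not given in the sources used here. In every list, a region holds the authors' signal value, which served only for ranks inside 1 list, and the deposited −log10 q-value, which reaches its maximum in 7035 of the 8998 optimal peaks. Read counts were not used, so depth and its precision are unknown. The labels do not state whether the replicates came from separate cultures or days, so the SD may be partly technical.

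Genes and start sites came from Ensembl release 115, and sequence came from the RefSeq copy of the same dm6 assembly. All list coordinates ended within the arms' lengths. With 1 group no test was made, and members are not replicates. The members, gene lists and words were chosen with earlier results of these data known. Named genes were every bound member, unbound members in a top list, the catalytic beta genes, the highest copy and each bound related gene. Sequences by that rule were those around TGACAG near the summits of bound members outside 2R, which are Rpn9 and Rpn5. The other sequences, with the TGACAG stretch of Rpt5 among them, were chosen after values were seen. So were the G and C shares and single genes such as Rpn12 and Prosbeta6. Alternatives changed the promoter window, start site, gene assignment, word, list length, rank measure and peak strength, or left out a replicate. The functions were checked on simulated data. Python 3.11.15, numpy 2.4.6, pandas 2.3.3 and matplotlib 3.10.9 were used.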

Additional observations from a re-analysis of the deposited data

How the results depend on the processing

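Over 9 results and 77 alternatives, 54 values stayed within 1.5 times the reported count or within the replicate SD and 23 moved. The copies were at 0 also with a window of 1000 bp and with any base of a peak in the window; the other settings could only remove calls. With the stronger 50% of peaks, 4 members were bound, all 4 single-copy, with 3 in the lid, 0 in the base and 1 in the core; this is 8.33% of the members and 12.5% of the single-copy genes, beside 15.1% of all genes. Giving each summit to the nearest gene alone left 7 members, all 7 single-copy, with 1 in the core and 1 with TGACAG. Each replicate was also left out in turn, keeping the optimal peaks that lay in the top lists of both others. This left 6 to 7 members, all of them single-copy genes, and 0 base genes. These are 12.5% to 14.6% of the members and 18.75% to 21.9% of the single-copy genes, beside 19.1% to 19.9% of all genes. The pooled summits remained, so these settings can only remove peaks. The bound members with TGACAG fell from 2 to 1 with a promoter window of 200 bp, with the word within 50 bp of the summit, and with TTGACAG in its place. Top lists with the stronger 50% of their regions held 6 members on average. Ranking by −log10 q moved the median percent rank of single-copy genes to 88.9. In replicates 1, 2 and 3, 5846, 7741 and 6355 of the 30000 regions shared the highest −log10 q and were given their average rank. The 88.9 is the place of these tied regions, so it is not a measure of the members' strength. No paired analysis was possible because all replicates belong to 1 group.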

Other observations

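The pooled list did not hold every strong replicate region. Of the 8998 regions in the top lists of replicates 1, 2 and 3, 302, 246 and 158 overlapped no region of the pooled list. Of 3356 protein-coding genes with a top-list summit within 500 bp of a TSS in 2 or more replicates, 192 had no pooled summit there, or 5.72%, and 1 of them was a proteasome gene, Rpt5. Among the related genes, rngo, the *Drosophila* Ddi1-type protease, had ranks 3090 and 2762 in replicates 1 and 2 and no optimal summit, RpS27A had rank 2418 in replicate 1 alone, and Uch-L5, a proteasome-bound deubiquitinase, had rank 2701 in replicate 2 alone.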
